A study of Mus musculus with 24 samples.

Results

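Glucose breakdown and the response to low oxygen were followed through 35 genes in CD45+ cells of EMT6-hHER2 tumors. The genes were taken by symbol from a list of glycolytic enzymes, transporters and targets of the hypoxia-inducible factor HIF, and all 35 were found among the 16996 genes of the expression table. EMT6-hHER2 is a murine breast cancer line, grown from a single sorted cell, that stably expresses human HER2, and it was grown as a tumor in the mammary fat pad in female Balb/c mice. At a tumor volume of 80 mm3 the mice, which are labelled as 10 to 12 weeks old, were left untreated or treated intravenously. The doses were 20 mg/kg of trastuzumab, an antibody to HER2, 15 mg/kg of T-DM1, which is trastuzumab coupled to the microtubule poison DM1, or 1 mg/kg of T-PNU, which is trastuzumab coupled through a non-cleavable linker to a derivative of the anthracycline PNU-159682. Tumors were taken on day 10, CD45+ cells were enriched on magnetic beads, and each mouse gave 1 RNA-seq library, so that the 24 libraries form 4 groups of 6. All mice carried the same clone, only the tumor cells express the human antigen, and the dose of T-PNU differed from that of the other agents. According to the methods, tumors treated with T-PNU were small when they were taken.

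Glycolysis splits glucose into pyruvate in the cytosol. Glucose enters the cell through transporters, is phosphorylated and cleaved in the upper steps, and yields ATP in the lower steps, after which lactate dehydrogenase can turn pyruvate into lactate for export. When oxygen is short, prolyl hydroxylases stop marking HIF proteins for degradation, and HIF then binds short DNA elements beside genes for glycolysis, pH control, angiogenesis and collagen modification. HIF1A is regulated mostly as a protein, so its mRNA is not a measure of its activity. In tumors, macrophages, neutrophils, cancer cells and fibroblasts all use these genes.

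The short element that HIF binds has the core ACGTG, with GCGTG as its other form, and these letters were counted on both strands of RefSeq promoter windows (GRCm38.p6) that reach from 250 bases before to 50 bases after each start of transcription, with overlapping matches counted as 1 site. Of the members, 34 had a window, and Ndrg1 had none. Either element lay in at least 1 window of 31 of these 34 genes, or 91.2%, against 46.7% of 27025 genes with a window. ACGTG alone lay in 24 of the 34, or 70.6%, against 21.8% of all. Among genes with a single window, which removes the advantage of genes with many starts, the shares for either element were 87.0% of 23 members and 43.1% of 22862 genes. Gpi1, Tpi1 and Car12 held neither element in their windows, and no conclusion about HIF follows from that. The members were listed in part as HIF targets, so a higher share was built into the list. The 27025 genes were not limited to those of the expression table, and base composition was not matched.

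The stretches below are those parts of the windows that lie upstream of the start and outside annotated exons, written 5′ to 3′ on the strand of the gene. They are shown for P4ha2, Ankrd37, Pfkfb3 and Pgam1, which are the 4 called members with the largest differences between T-PNU and T-DM1 among those whose stretch holds a whole ACGTG, and for Hk2 and Hif1a, which also hold the element and did not pass the test there. Capitals mark both forms of the element on either strand, and the choice of genes was made after their values were seen.
P4ha2, chr11:54100674-54100923, plus strand: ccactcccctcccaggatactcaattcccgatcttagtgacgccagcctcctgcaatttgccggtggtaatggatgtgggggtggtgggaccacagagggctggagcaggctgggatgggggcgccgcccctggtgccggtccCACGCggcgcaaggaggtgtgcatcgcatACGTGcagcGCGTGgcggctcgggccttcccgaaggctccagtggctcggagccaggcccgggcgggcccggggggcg
Ankrd37, chr8:45999868-46000100, minus strand: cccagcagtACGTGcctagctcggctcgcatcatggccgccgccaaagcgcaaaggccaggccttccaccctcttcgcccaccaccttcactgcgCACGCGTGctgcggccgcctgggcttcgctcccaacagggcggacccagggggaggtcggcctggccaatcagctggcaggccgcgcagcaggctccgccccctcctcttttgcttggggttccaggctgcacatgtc
Pfkfb3, chr2:11502102-11502340, minus strand: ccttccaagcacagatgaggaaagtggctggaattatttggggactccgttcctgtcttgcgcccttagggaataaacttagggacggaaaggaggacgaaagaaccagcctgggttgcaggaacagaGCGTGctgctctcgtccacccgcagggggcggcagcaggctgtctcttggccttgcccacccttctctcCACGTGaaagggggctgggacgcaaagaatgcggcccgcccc
Pgam1, chr19:41911621-41911870, plus strand: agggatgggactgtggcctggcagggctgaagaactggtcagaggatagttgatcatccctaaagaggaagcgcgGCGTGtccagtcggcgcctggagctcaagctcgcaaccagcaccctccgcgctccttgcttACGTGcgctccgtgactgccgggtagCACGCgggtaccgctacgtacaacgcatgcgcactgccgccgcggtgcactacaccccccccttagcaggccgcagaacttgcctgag
Hk2, chr6:82774455-82774704, minus strand: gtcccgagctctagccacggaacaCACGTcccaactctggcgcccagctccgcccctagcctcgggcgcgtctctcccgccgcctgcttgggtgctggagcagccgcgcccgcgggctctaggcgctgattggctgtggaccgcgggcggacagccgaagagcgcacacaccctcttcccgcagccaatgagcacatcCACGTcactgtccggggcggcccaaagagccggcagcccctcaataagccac
Hif1a, chr12:73907617-73907866, plus strand: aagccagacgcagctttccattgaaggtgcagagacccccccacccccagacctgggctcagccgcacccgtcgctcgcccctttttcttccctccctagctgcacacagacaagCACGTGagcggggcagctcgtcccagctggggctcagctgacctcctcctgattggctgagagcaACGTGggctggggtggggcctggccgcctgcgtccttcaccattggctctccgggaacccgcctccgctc

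The P4ha2 stretch held 3 sites, 1 of them ACGTG, and the Pgam1 stretch likewise held 3 sites with 1 ACGTG. Those of Ankrd37 and Pfkfb3 held 2 sites each, 1 of them ACGTG, although the first gene was lower and the second higher after T-PNU than after T-DM1. Hk2 and Hif1a each held 2 sites, both ACGTG. The letters were therefore present in members lower in T-PNU than in T-DM1, in a member higher there and in members not called between the conjugates. A match is not evidence that the factor was bound.

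The deposited values are log2 expression normalized for library size, the transformation is not named in the sources used here, and the read depth behind a value is unknown. The median value of a sample lay between 8.73 and 8.87. Ptprc, which encodes CD45, was high in every group, with a lowest sample value of 14.01 in the T-DM1 group and a highest of 15.52 in the T-PNU group. The study labels 20 of the 24 samples in its heatmaps, and the unlabelled ones are B1 and C1 of the untreated group and B3 and E2 of the trastuzumab group. All 24 are the basis here, and counts with 20 are given beside the members' counts. In bulk RNA, fewer cells of a type and less RNA per cell cannot be told apart. Nothing in the labels says more than that each library is 1 mouse. Column headings carry a number whose meaning is not given. It runs in separate series for the untreated group, for the T-PNU group, and for the trastuzumab and T-DM1 groups together. The wells also follow the order of the groups. Treatment therefore cannot be told apart from well order in any comparison, or from number series in those that cross a series.

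The members were abundant in these cells. Scaled per kilobase of annotated exon, the mean log2 level over the 24 samples was highest for Pkm (14.3), the pyruvate kinase of growing and immune cells, and for the aldolase Aldoa (14.3). Ldha (14.1), which makes lactate, followed, then the isomerase Tpi1 (13.4) and Gapdh (13.3). The lowest was the regulatory enzyme Pfkfb4 at 7.65 on the same scale, with Car12, a membrane carbonic anhydrase, next at 8.29. Between samples, Car9 varied most, with an SD of 0.58 over the 24 values and a range of 2.19 log2 units, and the platelet phosphofructokinase Pfkp least, with an SD of 0.12 and a range of 0.40. Eno1 had a second row under the same symbol with a mean level of 10.75 against 13.79. Enolase, Gapdh, Pgk1 and other glycolytic genes have near-identical copies elsewhere in the genome, and how reads were divided among such copies is uncertain.

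Averaged over the 35 genes, the deviation of a sample from each gene's own mean was lowest in H1 of the T-PNU group (-0.50) and highest in F3 of the T-DM1 group (0.35). All 6 T-DM1 samples lay above zero, between 0.11 and 0.35. The T-PNU samples spread from -0.50 to 0.07, all below every T-DM1 sample, and H1 and C2 (-0.49) were the lowest. G1 (0.0077), A2 (0.07), B2 (-0.10) and D2 (-0.26) had means within the ranges of the untreated and trastuzumab groups. Untreated samples lay between -0.28 and 0.15 and trastuzumab samples between -0.34 and 0.14. The lowest of the untreated samples was B1 and the lowest of the trastuzumab samples was E2, followed by B3 (-0.19), and all of these are among the 4 not labelled in the heatmaps. T-DM1 sample F3 held the highest value of the 24 for 17 of the 35 genes, and T-PNU samples H1 and C2 held the lowest for 15 and 10.

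**Figure D1:**
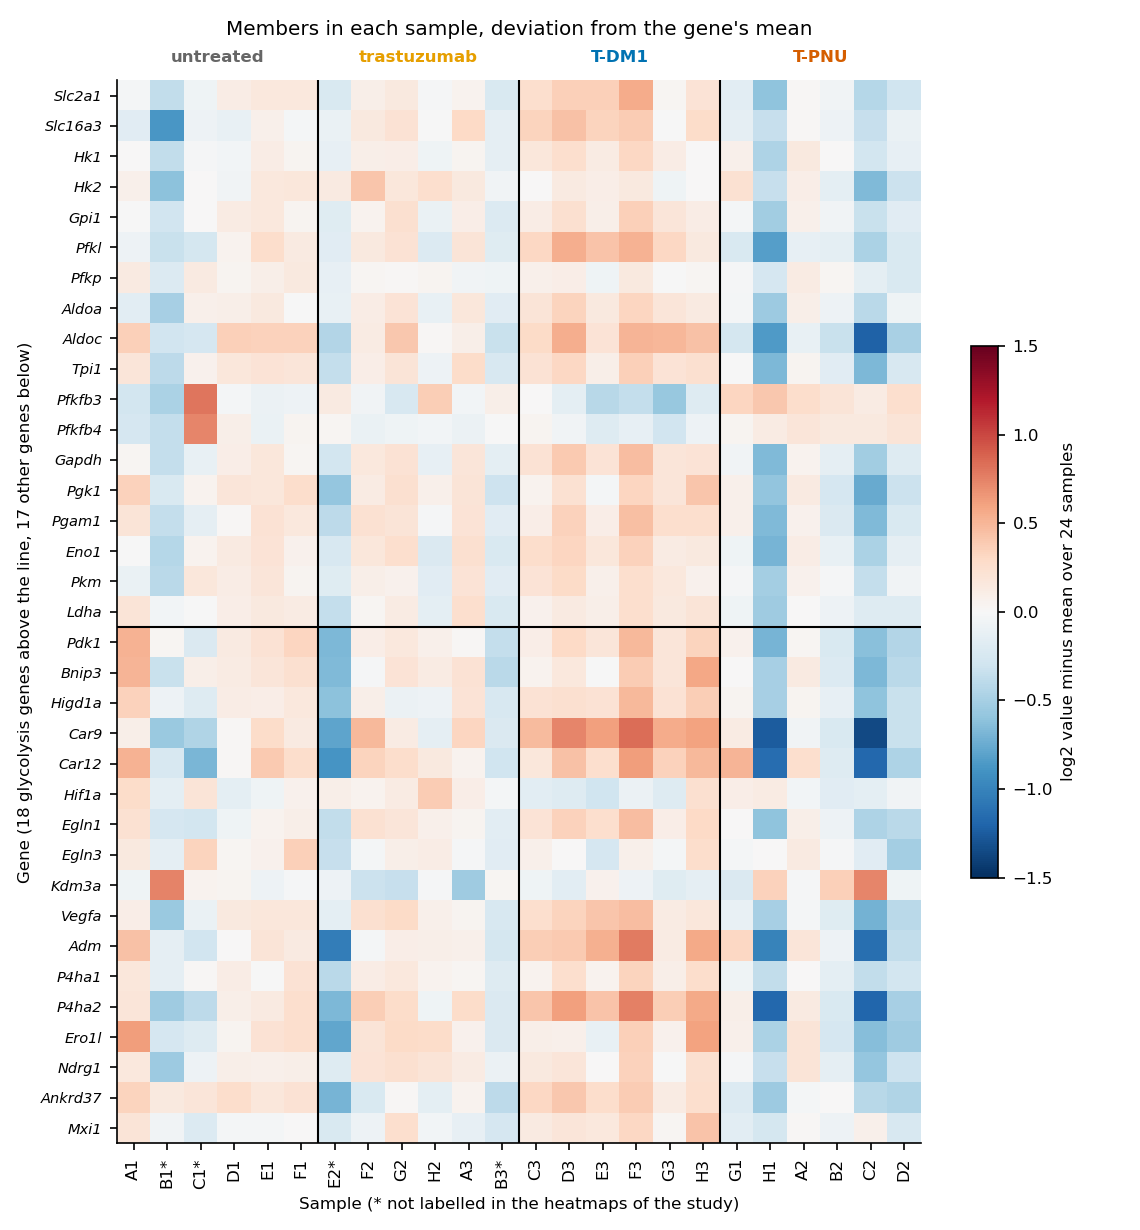
Each row is a member and each column a sample, colored by the log2 value minus the gene's mean over 24 samples, with 6 samples per group and stars on the 4 samples not labelled in the heatmaps of the study. T-DM1 columns are mostly red, T-PNU samples H1 and C2 are mostly blue, and Pfkfb3, Pfkfb4 and Kdm3a do not follow the other rows.

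The largest differences were between the conjugates, which were given at different doses. In T-PNU against T-DM1, 27 of the 35 members were lower, 1 was higher and 7 did not pass the test (limma, Benjamini-Hochberg adjusted p under 0.05 over all 16996 genes). Over all genes, 17.4% were called lower and 12.4% higher in this comparison, 29.8% in both directions, whereas 77.1% of the members were called lower. With the 20 samples labelled in the heatmaps, 28 members were called lower and 2 higher, where 20.1% and 19.8% of all genes were, 39.9% in both directions. The median member differed by -0.46 on the log2 scale, or 1.37-fold lower, and the median of all genes by 0.03. In 18 members the highest T-PNU value lay below the lowest T-DM1 value, and in 2 the groups were separated the other way, where 7.73% and 5.45% of all genes were so separated. Both parts of the list were involved, with 14 of 18 glycolysis genes (median -0.42) and 13 of 17 other hypoxia response genes (median -0.52) called lower. Neither conjugate group is a baseline. With 24 samples, 31 of the 35 members were below untreated in T-PNU and 29 above untreated in T-DM1, of which 0 and 2 were called. Of all genes, 48.5% were below untreated in T-PNU and 54.5% below untreated in T-DM1. Members are neighbors in 1 pathway and share samples, so their number is not a number of independent observations.

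**Figure D2:**
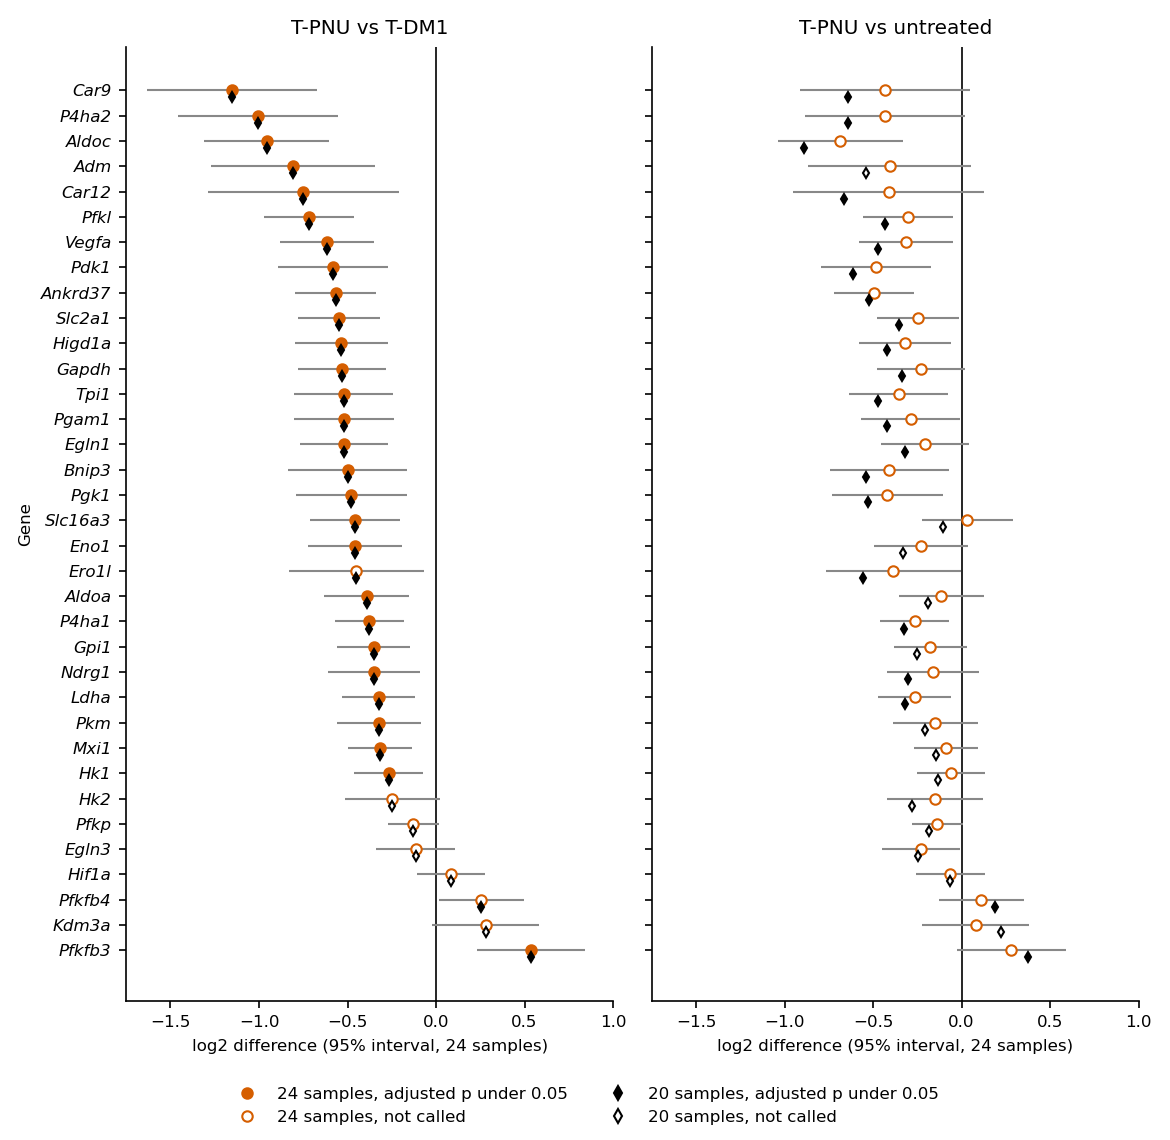
Log2 differences of the 35 members in T-PNU against T-DM1 and T-PNU against untreated, with 95% limma intervals for 24 samples as lines, circles for 24 samples and diamonds for 20 samples, filled where the adjusted p is under 0.05. Most circles are filled and left of zero on the left side, none are filled on the right side, and 22 diamonds are filled there.

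Both members for glucose and lactate transport had lower mRNA in T-PNU than in T-DM1. Of the transporters outside the members, Slc2a3 was called higher and Slc16a1 lower, as given below. Slc2a1, the glucose transporter GLUT1 (ENSMUSG00000028645, chromosome 4, 119108711 to 119137983 on mm10, the build of all gene positions given), had a lowest value of 13.30, a median of 13.68 and a highest of 13.92 in T-PNU, against 13.94, 14.21 and 14.47 in T-DM1. No value of the T-PNU group reached the T-DM1 group, though the gap between them was narrow. The difference was -0.55 ± 0.11 (SE, adjusted p = 0.00237, limma). In untreated mice Slc2a1 lay between 13.53 and 14.07, with a median of 13.95, and overlapped both. Slc16a3, the lactate exporter MCT4, was lower by a difference of -0.46 ± 0.12 (SE, adjusted p = 0.00963, limma), with T-PNU values of 12.71 to 13.07 and T-DM1 values of 13.05 to 13.49.

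Of the 8 genes of upper glycolysis, 6 were lower in T-PNU than in T-DM1 and 2 did not pass the test. Aldoc, the brain-type aldolase and a frequent HIF target (ENSMUSG00000017390, chromosome 11, 78322968 to 78327781), was at 9.13, 9.93 and 10.22 (lowest, median and highest) in T-PNU and at 10.54, 10.81 and 10.88 in T-DM1. The 4 untreated samples labelled in the heatmaps held 10.68 to 10.69 and the other two, B1 and C1, 10.05 and 10.09, so the untreated group split in 2. The difference between the conjugates was -0.96 ± 0.17 (SE, adjusted p = 0.00134, limma). Pfkl, the liver-type phosphofructokinase that commits sugar to glycolysis (ENSMUSG00000020277, chromosome 10, 77986947 to 78010083), was at 12.11, 12.71 and 12.81 in T-PNU and at 13.08, 13.31 and 13.48 in T-DM1. Every T-PNU value lay below every T-DM1 value, and the difference was -0.72 ± 0.12 (SE, adjusted p = 0.00114, limma), the smallest adjusted p among the members.

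The remaining upper enzymes that passed differed less. Tpi1 was lower by a log2 difference of -0.52, the main aldolase Aldoa by -0.39, the glucose phosphate isomerase Gpi1 by -0.35 and the hexokinase Hk1 by -0.27, with adjusted p-values from 0.00769 to 0.0343. Groups did not overlap for Tpi1, Aldoa and Gpi1 and did for Hk1. The isoforms of the same steps behaved unevenly. Hk2, the inducible hexokinase, differed by -0.25 with a 95% interval from -0.52 to 0.02 (adjusted p = 0.149, limma), and Pfkp by -0.13 with an interval from -0.27 to 0.02 (adjusted p = 0.161). Whether Pfkl changed more than Pfkp was not tested.

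The regulators Pfkfb3 and Pfkfb4, which make or remove the sugar phosphate that speeds phosphofructokinase, differed in the opposite direction, and 1 of them passed the test. Pfkfb3 (ENSMUSG00000026773, chromosome 2, 11471433 to 11554077) was at 12.16, 12.29 and 12.45 (lowest, median and highest) in T-PNU and at 11.47, 11.77 and 12.05 in T-DM1. It was the only member called higher with 24 samples, by 0.54 ± 0.15 (SE, adjusted p = 0.0112, limma). All 6 T-PNU samples lay above all 6 T-DM1 samples, H1 and C2 included. Pfkfb4 lay at 9.98 to 10.13 in T-PNU and at 9.65 to 9.98 in T-DM1, where the groups all but touched, a difference of 0.25 with an interval from 0.01 to 0.49 that was not called with 24 samples (adjusted p = 0.098) and was called with 20 (adjusted p = 0.00435). In untreated sample C1 both genes were at the highest value of their group, 12.85 for Pfkfb3 and 10.68 for Pfkfb4.

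All 6 genes of lower glycolysis were lower in T-PNU than in T-DM1. Gapdh, the dehydrogenase often used as a reference gene, was at 14.65, 15.15 and 15.37 in T-PNU and at 15.50, 15.54 and 15.78 in T-DM1, with no overlap and a difference of -0.53 ± 0.12 (SE, adjusted p = 0.00388, limma). Pgam1, a mutase (ENSMUSG00000011752, chromosome 19), differed by -0.52, the kinase Pgk1 by -0.48 and the enolase Eno1 by -0.46, with adjusted p-values of 0.00808, 0.022 and 0.0117. The second Eno1 row differed by -0.69 (adjusted p = 0.00558, limma). Pkm and Ldha, the most abundant of the group, each differed by -0.32, with adjusted p-values of 0.0384 and 0.0194. Ldha held 15.29 to 15.83 in T-PNU and 15.89 to 16.08 in T-DM1, and its fold is small next to that of Aldoc.

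**Figure D3:**
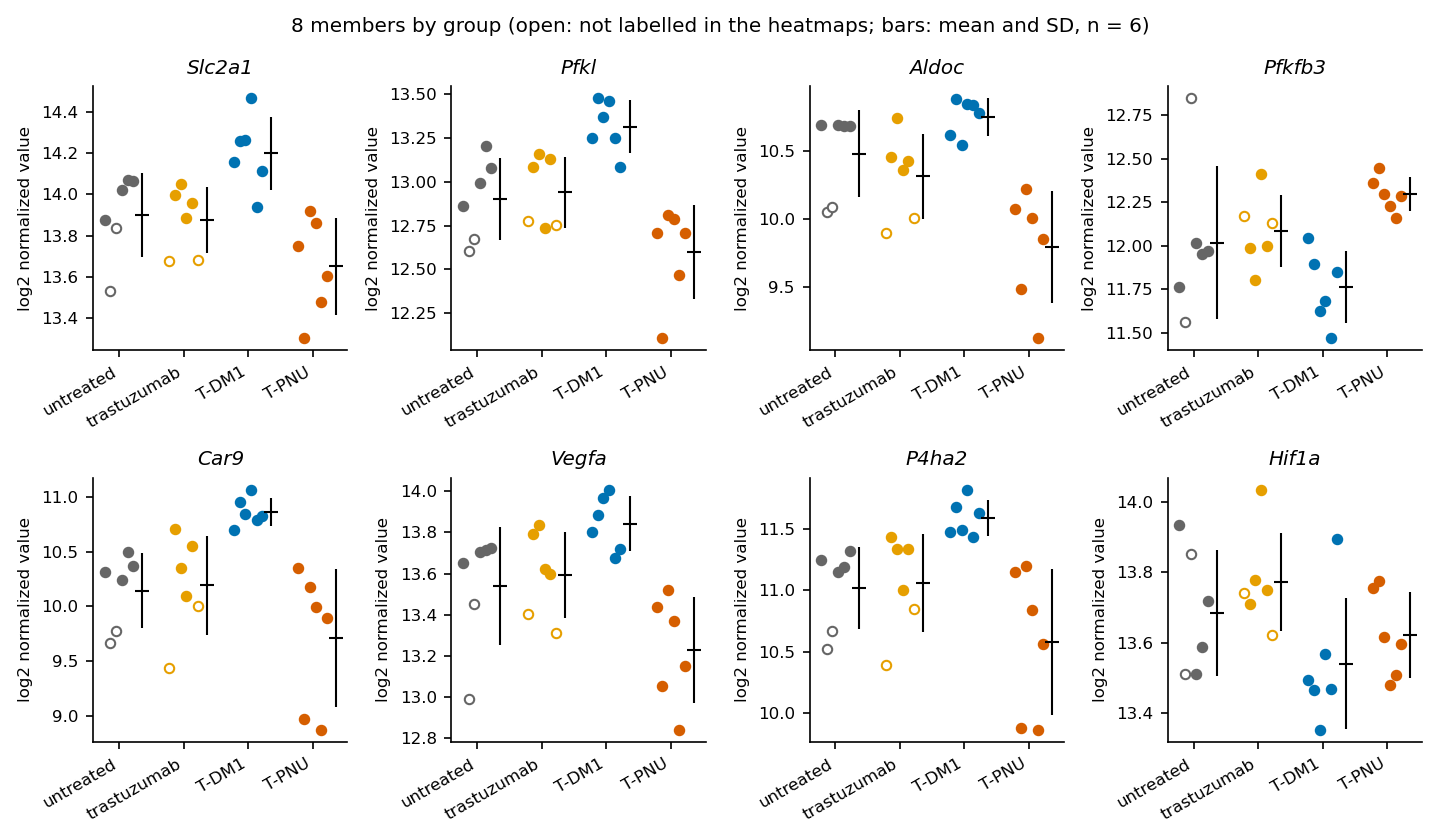
Log2 normalized values of 8 members, 1 point per sample, with open points for the 4 samples not labelled in the heatmaps and black bars for mean and SD (n = 6). T-DM1 points lie above T-PNU points for Slc2a1, Pfkl, Aldoc, Car9, Vegfa and P4ha2 and below them for Pfkfb3, and the groups overlap for Hif1a.

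Genes that adapt mitochondria to low oxygen were also lower in T-PNU than in T-DM1. Pdk1, the kinase that shuts pyruvate dehydrogenase, was lower by a difference of -0.58 ± 0.15 (SE, adjusted p = 0.00779, limma), with 10.97 to 11.74 in T-PNU and 11.77 to 12.15 in T-DM1. Higd1a, a small protein of the respiratory chain, differed by -0.54 and Bnip3, a mitophagy receptor, by -0.50, with adjusted p-values of 0.00483 and 0.025. All 3 of these genes were called.

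The acid-base genes held the largest difference. Car9, the carbonic anhydrase that marks hypoxic tumor cells (ENSMUSG00000028463, chromosome 4, 43506966 to 43513729), was at 8.87, 9.95 and 10.35 (lowest, median and highest) in T-PNU and at 10.70, 10.84 and 11.07 in T-DM1. In untreated mice it lay between 9.67 and 10.50 and in trastuzumab mice between 9.44 and 10.71. T-DM1 values were therefore tight and above nearly all others, while T-PNU samples H1 (8.97) and C2 (8.87) stood below the other 4 T-PNU samples, the lowest of which was D2 at 9.90. The difference between the conjugates was -1.15 ± 0.23 (SE, adjusted p = 0.00226, limma), and without C2 it was -0.98. The SD of Car9 was 0.63 in T-PNU and 0.13 in T-DM1. Car12 differed by -0.75 with overlapping groups (adjusted p = 0.0341), and in T-PNU it ran from 10.05 to 11.73.

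Of the 4 oxygen sensing genes, only Egln1 was called, as lower in T-PNU than in T-DM1. Egln1, the prolyl hydroxylase PHD2, differed by -0.52 ± 0.12 (SE, adjusted p = 0.00434, limma), with 11.53 to 12.22 in T-PNU and 12.24 to 12.60 in T-DM1. Hif1a (ENSMUSG00000021109, chromosome 12, 73901375 to 73947530) was at 13.48, 13.61 and 13.78 in T-PNU and at 13.35, 13.48 and 13.89 in T-DM1, and the groups overlapped. Its difference was 0.08 with a 95% interval from -0.11 to 0.27 (adjusted p = 0.508). The hydroxylase Egln3 differed by -0.12 (interval -0.34 to 0.11) and the histone demethylase Kdm3a by 0.28 (interval -0.02 to 0.58), with adjusted p-values of 0.413 and 0.143. Within the T-PNU group Kdm3a was highest in C2 at 12.91, the sample where Car9 was lowest.

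Both secreted factors were lower in T-PNU. Vegfa, which drives vessel growth, was at 12.84, 13.26 and 13.52 in T-PNU and at 13.68, 13.84 and 14.01 in T-DM1, with no overlap and a difference of -0.61 ± 0.13 (SE, adjusted p = 0.00269, limma). Adm, the vasodilator adrenomedullin, differed by -0.81 ± 0.22 (SE, adjusted p = 0.0111), but T-PNU sample G1 at 11.21 reached into the T-DM1 range of 11.03 to 11.68.

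Collagen modification followed. P4ha2, a prolyl hydroxylase of collagen (ENSMUSG00000018906, chromosome 11, 54100095 to 54131665), was at 9.87, 10.70 and 11.20 in T-PNU and at 11.43, 11.56 and 11.82 in T-DM1. The groups did not overlap, and the difference was -1.01 ± 0.22 (SE, adjusted p = 0.0032, limma), the second largest among the members. As for Car9, samples H1 (9.88) and C2 (9.87) were far below the other T-PNU samples. P4ha1, which encodes another form of the enzyme's catalytic subunit, differed by -0.38 (adjusted p = 0.00649). Ero1l, an oxidase of the endoplasmic reticulum that supports protein folding, differed by -0.45 with an interval from -0.83 to -0.07 and was not called with 24 samples (adjusted p = 0.0667), but was with 20 (adjusted p = 0.0176).

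The other 3 hypoxia targets were lower in T-PNU than in T-DM1 as well. Ankrd37, a small ankyrin repeat protein induced by HIF (ENSMUSG00000050914, chromosome 8, 45996902 to 46005707), was at 9.05, 9.29 and 9.598 in T-PNU and at 9.72, 9.89 and 10.00 in T-DM1, a difference of -0.57 ± 0.11 (SE, adjusted p = 0.00193, limma). Ndrg1, a stress-responsive gene, differed by -0.35 and the MYC antagonist Mxi1 by -0.32, both with overlapping groups and with adjusted p-values of 0.0386 and 0.0107. When each of the 12 samples was left out in turn, between 20 and 30 members were called in this contrast, the fewest without T-PNU sample H1 (18.5% of all genes called) and the most without T-PNU sample G1 (33.9%). Without H1, Aldoa, Bnip3, Car12, Hk1, Ldha, Ndrg1, Pgk1 and Pkm were not called, and all of these but Aldoa and Ldha also lost the call without T-DM1 sample F3 or T-PNU sample C2. No called member changed sign. Only Car9 and P4ha2 passed an adjusted p under 0.01 together with a fold above 2, as did 1.91% of all genes.

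Against untreated tumors the members stood lower in T-PNU by smaller amounts, and the outcome turned on the samples included. With 24 samples, 0 of the 35 were called by limma, 15 had an unadjusted p under 0.05 (24.8% of all genes did), and 0.188% of all genes were called (0.053% lower and 0.135% higher). The median member differed by -0.25. With the 20 samples labelled in the heatmaps, 20 members were called lower and 2 higher, where 15.7% and 15.3% of all genes were, and the median member differed by -0.33. The called genes were Slc2a1, Pfkl, Aldoc, Tpi1, Gapdh, Pgk1, Pgam1, Ldha, Pdk1, Bnip3, Higd1a, Car9, Car12, Egln1, Vegfa, P4ha1, P4ha2, Ero1l, Ndrg1 and Ankrd37 as lower and Pfkfb3 and Pfkfb4 as higher. Untreated sample B1 lay above a gene's mean over 24 samples for 3 of the 35 members and C1 for 16, against 25 to 31 members in the other 4 untreated samples. Cell markers moved with these calls. With the same 20 samples, 9 of 9 T cell, 3 of 3 NK cell and 3 of 6 dendritic cell genes were called higher after T-PNU than without treatment. So were 4 of 6 endothelial and 4 of 5 pan-leukocyte genes, and 4 of 7 stroma genes and 6 of 6 proliferation genes were lower. Of 8 epithelial genes, 4 were higher and 1 lower. Also higher were 3 of 9 neutrophil, 2 of 11 macrophage and 2 of 7 dissociation stress genes. No B cell, muscle, adipocyte or red blood cell gene was called. With 24 samples, 1 pan-leukocyte, 1 macrophage and 1 epithelial gene were called higher and no marker lower. The part of these cells in the members' differences was not tested.

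Single genes show this dependence. Aldoc had the largest difference with 24 samples, -0.69 ± 0.17 (SE, adjusted p = 0.0603, limma), and -0.89 with 20 (adjusted p = 0.00244). Ankrd37 differed by -0.49 (adjusted p = 0.0519, the smallest among the members) and by -0.52 with 20 samples (adjusted p = 0.00346). It was the one member whose T-PNU values, at most 9.598, all lay below the untreated ones, at least 9.74, with 24 samples, where 0.671% of all genes were separated that way and 0.341% the other way. At the other end, Pfkfb3 differed by 0.28 and Pfkfb4 by 0.11 with 24 samples, with adjusted p-values of 0.237 and 0.541. Leaving out single samples gave up to 5 called members, the most without C1, where 17.2% of all genes were called and the members' share was 14.3%.

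T-DM1 stood higher than untreated for 29 of the 35 members, but few passed. Of all genes, 54.5% stood lower in T-DM1 than in untreated. Slc16a3 rose by 0.49 ± 0.12 (SE, adjusted p = 0.022, limma), and Pfkl rose by 0.41 ± 0.12 (SE, adjusted p = 0.0459), 2 of 35 members where 4.11% of all genes were called higher, 2.15% lower and 6.27% in either direction. Slc16a3 ran from 12.19 to 13.13 in untreated mice, with B1 lowest, and from 13.05 to 13.49 in T-DM1. With 20 samples, which leave out B1, 0 members were called by limma, 3 had an unadjusted p under 0.05 (18.1% of all genes did) and Slc16a3 had an adjusted p of 0.0506, and 2.01% of all genes were called (0.906% higher and 1.1% lower). Slc16a3 was not called without D3, E3 or F3 of the T-DM1 group, and Pfkl held its call only without untreated E1 or T-DM1 H3. The largest differences were those of Car9 (0.72, adjusted p = 0.0637) and P4ha2 (0.57, adjusted p = 0.111), whose T-DM1 values all lay above the untreated ones, as did those of Gapdh, where 2.05% of all genes were so separated and 1.28% the other way. The smallest were those of Pfkfb3 (-0.26, adjusted p = 0.311) and Kdm3a (-0.20, adjusted p = 0.425).

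For trastuzumab alone against no treatment, no difference of a member passed the test. With limma, 0 members were called, 3 had an unadjusted p under 0.05 with 24 samples and 2 with 20, where 8.77% and 5.09% of all genes did, and the median member differed by -0.03, where 0.259% of all genes were called with 24 samples (0.247% higher and 0.0118% lower). Ankrd37 was lowest relative to untreated, by -0.45 (adjusted p = 0.085), with every trastuzumab value, at most 9.65, under the lowest untreated value of 9.74, a separation that 0.247% of all genes showed, with 0.294% separated upward. Kdm3a differed by -0.32 (adjusted p = 0.532). The largest positive differences were those of Slc16a3 (0.27, adjusted p = 0.542) and Hk2 (0.22, adjusted p = 0.701). The 95% interval of Ankrd37 ran from -0.68 to -0.22 and that of Slc16a3 from 0.01 to 0.52.

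Against trastuzumab, T-PNU was lower for 32 of the 35 members, where 47.95% of all genes were lower. With 24 samples 0 were called by limma, 8 had an unadjusted p under 0.05, where 19.5% of all genes did, and 0.00588% of all genes, or 1 gene, were called. With 20 samples 19 members were called lower and 2, Pfkfb4 and Kdm3a, higher, where 13.5% and 14.6% of all genes were. With the same 20 samples, 6 of 9 T cell genes and 3 of 5 pan-leukocyte genes were higher. Lower were 5 of 7 stroma genes and 5 of 6 proliferation genes. Of 8 epithelial genes, 4 were higher and 1 lower. Also higher were 4 of 6 endothelial, 2 of 6 B cell and 3 of 7 dissociation stress genes. The dendritic cell, macrophage and muscle lists gave 1 higher gene each. No NK cell, neutrophil, red blood cell or adipocyte gene was called. The part of these markers was not tested. Aldoc (-0.52, adjusted p = 0.169) and Car9 (-0.48, adjusted p = 0.259) had the largest negative differences with 24 samples, and Kdm3a (0.40, adjusted p = 0.175) and Pfkfb3 (0.21, adjusted p = 0.395) the largest positive ones. Pfkfb4 (0.18) was the one member whose groups did not overlap, with every T-PNU value the higher, where 0.894% of all genes were so separated and 0.412% the other way. Hk2, not called against T-DM1, was among the 19, with -0.44 (adjusted p = 0.0185 with 20 samples).

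T-DM1 was higher than trastuzumab for 31 members, of which 1 was called, where 0.212% of all genes were called higher, 0.435% lower and 0.647% in either direction. Of all genes, 50.4% stood lower in T-DM1 than in trastuzumab. Ankrd37 rose by 0.52 ± 0.11 (SE, adjusted p = 0.0272, limma), with 8.90 to 9.65 in trastuzumab and 9.72 to 10.00 in T-DM1. The call was lost without D3, E3 or F3 of T-DM1 or E2, H2 or B3 of trastuzumab. Groups were likewise separated for Higd1a, P4ha2 and Adm, 4 members in all, where 1.13% of all genes were separated upward and 1.37% downward. With 20 samples 0 members were called by limma and 6 had an unadjusted p under 0.05 (14.1% of all genes did), where 0.812% of all genes were called (0.118% higher and 0.694% lower). Car9 (0.67, adjusted p = 0.171) and Adm (0.64, adjusted p = 0.174) showed the largest positive differences, and Pfkfb3 (-0.32, adjusted p = 0.301) and Hif1a (-0.23, adjusted p = 0.231) the largest negative ones. The 6 comparisons share samples, and T-DM1, T-PNU, untreated and trastuzumab enter 3 of them each, so they do not bear on each other independently.

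**Figure D4:**
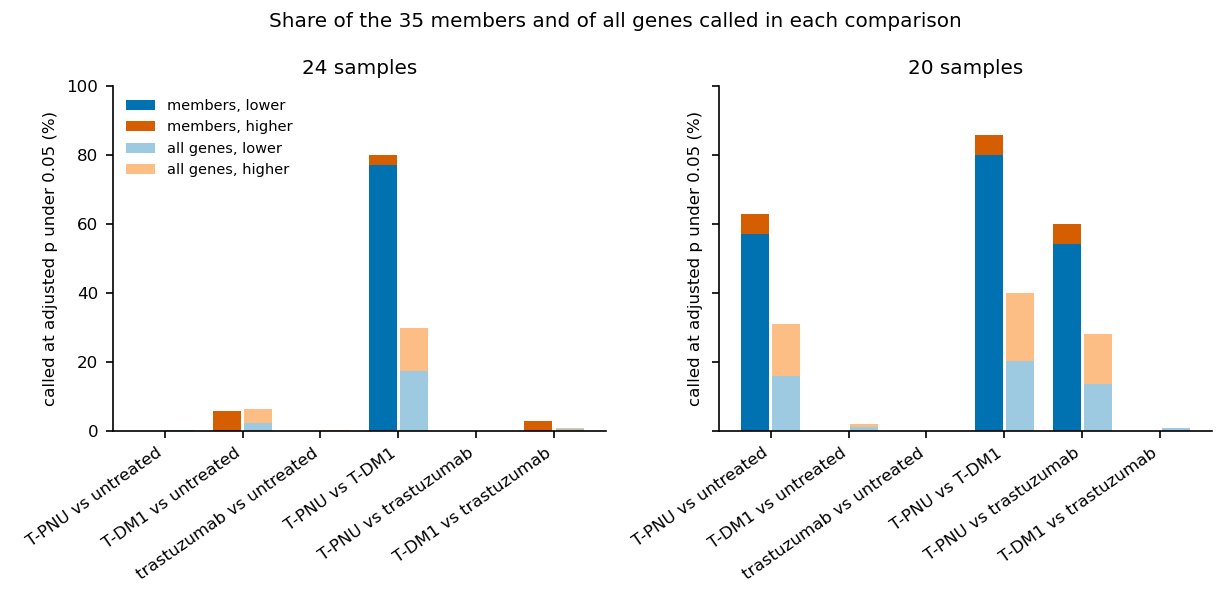
Percent of the 35 members and of all 16996 genes called lower or higher at an adjusted p under 0.05, stacked by direction, for the 6 comparisons with 24 samples and with 20. Members reach 80% in T-PNU against T-DM1 with 24 samples and all genes 29.8%, and the bars of T-PNU against untreated and against trastuzumab are near zero with 24 samples and reach 62.9% and 60% of the members with 20.

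Other glycolysis genes split more evenly in T-PNU against T-DM1. Of 21 further glycolysis genes, 15 had values, of which 4 were called lower and 3 higher, 46.7% beside 29.8% of all genes. Eno3 (-0.79) and Eno2 (-0.54), the muscle and neuronal enolases, the muscle phosphofructokinase Pfkm (-0.53) and the lactate carrier Slc16a1 (-0.40) were lower, whereas Ldhb (0.60), the glucose transporter Slc2a3 (0.54) and the ADP-dependent glucokinase Adpgk (0.19) were higher. Their median difference was 0.10, beside -0.42 for the 18 glycolysis members. With 24 samples none of them was called in another comparison, and against untreated the extremes were Eno3 (-0.54, adjusted p = 0.0975, limma) and Hk3 (0.49, adjusted p = 0.173).

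Of 32 further hypoxia response genes, 30 had values. In T-PNU against T-DM1, 12 were called lower and 2 higher, 46.7% beside 29.8% of all genes (17.4% lower and 12.4% higher). The median of the 30 was -0.13. Among the largest negative differences were those of Lox (-1.32) and Plod2 (-1.01), which crosslink and hydroxylate collagen, Angptl4 (-1.005) and Mif (-0.94). Loxl2 (-0.77), Fam162a (-0.67), Gys1 (-0.66), Gbe1 (-0.60), Bhlhe40 (-0.36), Ddit4 (-0.35) and Jmjd6 (-0.23) were lower too. Epas1, which encodes HIF2A, was higher by 0.56 and Vhl, which marks HIF for degradation, by 0.16. The largest positive difference, that of Stc2 (0.70), did not pass (adjusted p = 0.0903, limma). In other comparisons Mif was higher in T-DM1 than in untreated by 0.72 (adjusted p = 0.0103) and Ddit4 higher in T-DM1 than in trastuzumab by 0.37 (adjusted p = 0.0316). With 20 samples neither call held, Mif having an adjusted p of 0.0776, and Arg1, named here after its values were seen, was lower in T-DM1 than in untreated by a difference of -0.67 (adjusted p = 0.0398, limma). Against untreated, T-PNU values differed between -0.70 for Lox and 0.87 for Stc2, neither called (adjusted p = 0.125 and 0.102).

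In the branches leaving glycolysis the share of genes called was below that of all genes for the first 2 of 3 lists, 25% each beside 29.8%. It was above that share for the third, gluconeogenesis, at 75% of only 4 genes. Of 12 pyruvate dehydrogenase and carrier genes, Pdk4 (-0.87) and Pdha1 (-0.21) were lower and Pdk2 (0.33) was higher in T-PNU than in T-DM1. The largest positive difference, Pdp2 at 0.38, was not called (adjusted p = 0.107, limma). Of 8 pentose phosphate genes, Tkt (-0.62) and Pgls (-0.53) were lower, and Pgls was also higher in T-DM1 than in untreated by 0.41 (adjusted p = 0.0357). Rpia had the largest positive difference of that list, 0.15 (adjusted p = 0.287). Of 4 gluconeogenesis genes with values, Pcx (-0.67) and Pck2 (-0.41) were lower in T-PNU than in T-DM1 and Fbp1 was higher by 0.38. The medians of these 3 lists were 0.03, 0.004 and -0.24. Against untreated none was called, and the extremes were Pdk4 (-0.29, adjusted p = 0.505) and Pdk2 (0.48, adjusted p = 0.0639), Tkt (-0.30, adjusted p = 0.125) and H6pd (0.13, adjusted p = 0.463), and Pck2 (-0.30, adjusted p = 0.0681) and Fbp1 (0.25, adjusted p = 0.157).

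Markers of other cells moved with these differences. Of 7 fibroblast and stroma genes, 6 were lower in T-PNU than in T-DM1 and 0 higher (limma), where 17.4% and 12.4% of all genes were. The median difference of the stroma genes was -1.36, beside -1.15 for Car9, the member with the largest negative difference. The log2 of the summed level of the stroma genes was 14.45 to 16.01 in T-PNU, 16.53 to 17.09 in T-DM1, 14.97 to 16.33 in untreated and 15.75 to 16.61 in trastuzumab mice. It was lowest in C2 (14.45), H1 (14.86) and C1 (14.97), and C2 and H1 are the samples where most members were lowest. Col1a1 lay at 11.49 to 12.93 in T-PNU and 13.64 to 14.46 in T-DM1, so this collagen message was abundant in the CD45+ preparation of every group.

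Of 5 pan-leukocyte genes, 4 were higher in T-PNU and 0 lower, with a summed level of 16.39 to 17.15 in T-PNU, 16.02 to 16.41 in T-DM1, 16.09 to 16.81 in untreated and 16.19 to 16.84 in trastuzumab mice. Of 8 epithelial genes, Krt8 was lower (11.69 to 13.11 against 13.17 to 13.77), Epcam and Krt14 were higher, and the summed level was 12.61 to 13.72 in T-PNU, 13.62 to 14.21 in T-DM1, 13.00 to 13.91 in untreated and 13.21 to 13.77 in trastuzumab mice. Krt8, with medians of 12.73 in T-PNU and 13.54 in T-DM1, made up most of this sum. The median difference of the 8 genes was 0.16. Genes called higher in T-PNU numbered 5 of 11 for macrophages and monocytes, 2 of 9 for neutrophils, 2 of 6 for dendritic cells, 3 of 3 measured for NK cells and 5 of 6 for endothelium, none being lower in these lists with 24 samples. Over all genes, 12.4% were called higher and 17.4% lower with 24 samples. None was called among 9 T cell, 6 B cell, 6 proliferation, 4 muscle, 3 red blood cell and 1 adipocyte genes, and of 7 dissociation stress genes 1 was higher and 2 lower. With 20 samples the counts were 7 of 11 higher for macrophages, 4 higher and 1 lower of 9 for neutrophils, 4 of 9 higher for T cells, 1 of 3 lower for red blood cells and 2 higher and 2 lower for dissociation stress, and the other lists gave the same counts. Over all genes, 19.8% were called higher and 20.1% lower with 20 samples. Although no T or B cell gene passed with 24 samples, their summed levels were high in the 4 samples with the lowest member means, but not only there. For T cells they were 14.87 in C2, 13.84 in H1, 14.62 in B1 and 14.15 in E2, and 12.54 in G1 and 12.67 in A2. For B cells they were 13.84, 14.00, 13.71 and 14.04 in the same 4 samples, and 9.85 in G1 and 11.65 in A2. T-DM1 sample E3 held 13.72 for T cells and 12.81 for B cells, with a mean member deviation of 0.13. G3 of that group held 13.10 and 13.19, with a deviation of 0.11. T-PNU sample B2 held 14.00 and 12.86, with a deviation of -0.10. The part of the cell makeup in the members' differences was not tested.

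**Figure D5:**
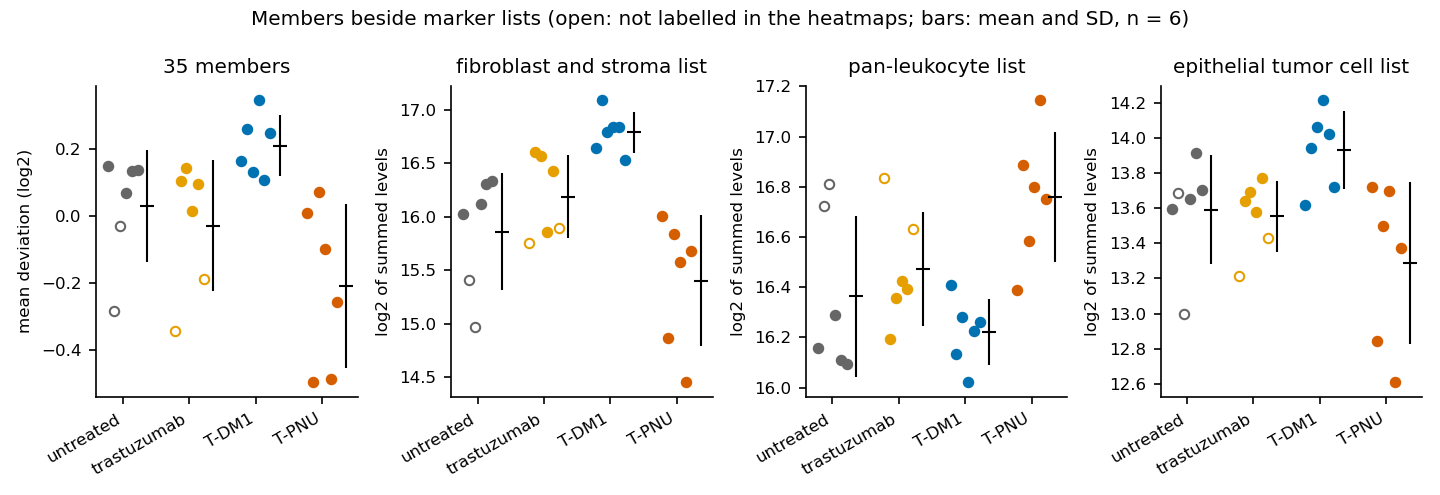
Mean deviation of the 35 members and the log2 of the summed level of 3 marker lists in each sample, by group, with open points for the 4 samples not labelled in the heatmaps and bars for mean and SD (n = 6). For the members and for the stroma list T-DM1 lies highest and T-PNU lowest, and for the pan-leukocyte list T-PNU lies highest. The epithelial sum is mostly Krt8.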

How the data were processed

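CD45+ cells of 24 tumors were profiled by stranded poly(A) RNA-seq. The authors aligned reads to mm10 with STAR (2.4.2a), checked them with Picard, counted them with featureCounts of Subread (1.5.0), dropped genes with fewer than 5 counts on average and normalized with DESeq2. The deposited values are log2 normalized expression for 16996 genes; the exact transformation is not given in the sources used here, and without counts the depth is unknown, so no count model was run. Groups were taken from the sample labels. Where a symbol had several rows, the row with the highest mean was used.

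A linear model with 4 group means was fitted to all 24 samples and all genes with limma (3.58.1, R 4.3.3) and a variance trend, and 6 pairwise comparisons were tested with Benjamini-Hochberg adjustment over 16996 genes, called at an adjusted p under 0.05. No covariate was used. The fit was tested on simulated data. Alternatives were the 20 samples labelled in the heatmaps, quantile-normalized values, the upper part of the genes by mean level, fits to 2 groups, sample weights (statmod 1.5.0), robust variance, an adjusted p under 0.01 with a fold above 2, and leaving out each sample. Levels between genes were compared per kilobase of GENCODE exon, and promoter windows were RefSeq's. The named genes are all 35 members, and of the other lists those called in a comparison with the extremes of each list, except 1 gene that is counted but not reported here. Plots were made in matplotlib (3.10.9) under Python (3.11.15). The members and lists were chosen with earlier results of these data known.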

Additional observations from a re-analysis of the deposited data

Results flagged for a closer look

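In 13 of the 140 pairs of a member and a group, the highest or lowest of 6 samples was set apart from the rest by more than Dixon's 95% limit, where chance gives about 1 in 20. The members share samples, so the pairs are not independent and the 13 cannot be weighed against that rate. Untreated sample B1 was the low one for 8 genes on the log2 scale. It held 12.19 for Slc16a3, 12.13 for Hk1, 12.01 for Hk2, 13.15 for Pfkp, 14.45 for Tpi1, 13.36 for Eno1, 12.99 for Vegfa and 14.12 for Ndrg1. The same sample was high for Kdm3a, at 12.92. Untreated sample C1 was high for Pfkfb3, at 12.85. T-DM1 sample G3 was low for Slc16a3, at 13.05, T-PNU sample H1 was low for Ldha, at 15.29, and trastuzumab sample E2 was low for Adm, at 9.86. B1, C1 and E2 are among the 4 samples not labelled in the heatmaps of the study, and B1 had the lowest summed macrophage (16.60) and neutrophil (16.40) markers of the 24, the second highest T cell (14.62) and dendritic cell (14.68) markers, and B cell markers of 13.71, beside 14.04 in E2. Summing was done on unlogged levels, so the most abundant genes set each sum. The dendritic cell sum of B1 was nearly all Ccr7, whose highest untreated value was 14.65. No other dendritic cell gene exceeded 8.61 in the untreated group. Among the neutrophil genes Il1b was highest, at 15.77 to 16.90 in untreated mice. The part of these markers in the members' values was not tested.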

How the results depend on the processing

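No paired analysis was possible because each library is a different mouse and the labels give no pairing between groups. No called member changed sign under any alternative run. The number of members called in T-PNU against T-DM1, 28 with 24 samples, was 30 with the 20 heatmap samples (39.9% of all genes called), 29 after quantile normalization (29.1%) and with 2 groups only (32.8%), 28 above the median mean (35.3%) and with robust variance (29.8%), 32 with sample weights (44.6%) and 2 at an adjusted p under 0.01 with a fold above 2 (1.91%). Leaving out samples gave 20 (without T-PNU H1, 18.5%) to 30 (without T-PNU G1, 33.9%). For T-PNU against untreated, 0 with 24 samples, the counts were 22 with 20 samples (31.1% of all genes), 19 with weights (34.3%) and 1 above the median mean (1.06%), and 0 to 5 on leaving out samples, the most without untreated C1 (17.2%, beside 14.3% of the members). For T-PNU against trastuzumab they were 21 with 20 samples (28% of all genes) and 5 with weights, 14.3% of the members beside 13.3% of all genes. For T-DM1 against untreated, 2 with 24 samples, they were 0 with 20 samples and at the stricter limit, 9 with weights (25.7% of the members, 19.4% of all genes) and 0 to 3 on leaving out samples, the most without untreated E1 (9.57% of all genes). For T-DM1 against trastuzumab, 1 with 24 samples, they were 0 with 20 samples, above the median mean and at the stricter limit, 9 with weights (7.25% of all genes) and 0 to 2 on leaving out samples, the most without trastuzumab G2 (0.947%). Trastuzumab against untreated gave 1 with weights (1.15% of all genes). Of single calls, Slc16a3 (0.49) and Pfkl (0.41) in T-DM1 against untreated had adjusted p-values of 0.07 and 0.0552 with 2 groups only, Hk1 0.0551 in T-PNU against T-DM1, and Ankrd37 0.0506 above the median mean. With 20 samples, the further glycolysis, hypoxia, pyruvate dehydrogenase, pentose phosphate and gluconeogenesis lists gave 6, 12, 4, 1 and 2 calls in T-PNU against untreated and 6, 13, 6, 1 and 1 against trastuzumab, the pyruvate dehydrogenase list 6 in T-PNU against T-DM1, and 0 were called for the pentose phosphate list in T-DM1 against untreated and for the hypoxia list in T-DM1 against trastuzumab, while the hypoxia list in T-DM1 against untreated kept a count of 1 through another gene, Arg1 in place of Mif. With ACGTG alone, 70.59% of member genes and 21.78% of all genes held the element. Apart from the samples left out, the causes were not tested. Depth is unknown, so precision rests on 6 mice per group.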
